A study of Mus musculus with 4 samples.

Results

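The lecticans, their hyaluronan link proteins and the tenascins Tnr and Tnc were followed in mouse optic nerve, as 10 genes named by symbol among the 55401 genes of each table. They are Vcan, Bcan, Ncan and Acan (lecticans), Hapln1, Hapln2, Hapln3 and Hapln4 (link proteins), and Tnr and Tnc (tenascins). All 10 symbols matched a measured gene. Libraries were 2 of Dor cKO nerves, in which Dor is conditionally knocked out, and 2 of Dor WT nerves, all made from polyA RNA of optic nerves and sequenced as stranded libraries with paired reads. The sources used here do not give age, sex, strain, how many animals each library holds, or which driver and cell type the conditional knockout uses. Nothing says that the libraries of a group come from separate animals, so p-values measure only the spread between these libraries, which may be technical. What looks like an age appears in the names of both Dor WT tables and of neither Dor cKO table, so age and genotype cannot be told apart.

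Lecticans are secreted proteoglycans that bind hyaluronan at their amino end and carry chondroitin sulfate chains along a central stretch. Link proteins lock the lectican head onto the hyaluronan strand, and tenascins, above all Tnr, bind the lectin-like tail of lecticans and tie several of them together. In white matter such complexes gather at the nodes of Ranvier, and around some neurons they form perineuronal nets. Lecticans and Tnc are also known for limiting axon growth and the maturation of oligodendrocyte precursors after injury.

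Total expected counts were 21162594 and 20928332 in Dor cKO and 17263830 and 21595832 in Dor WT, so 3 counts correspond to 0.138 to 0.173 CPM (counts scaled to library size, on library sizes scaled by the TMM method). Dor is a synonym of Trp53inp2, which had 105 and 107 CPM in Dor cKO against 138 and 134 CPM in Dor WT. It was 1.28-fold lower in Dor cKO (edgeR adjusted p = 2.73e-08), a call lost with limma on log2(TPM + 1) (adjusted p = 0.078) and at a fixed biological coefficient of variation of 0.1 (adjusted p = 0.111). Whole-gene counts of the nerve cannot show which exons or cells a knockout affects. Mbp of myelin and Gfap of astrocytes were abundant in all 4 libraries, and the 8 genes of a retina list summed to 0.530 to 0.953 CPM in Dor cKO and 0.461 to 0.506 CPM in Dor WT. Genes of the neighbouring hypothalamus and pituitary were counted too. The hypothalamic hormone gene Avp had 341 and 357 CPM in Dor cKO and 334 and 358 CPM in Dor WT. Other hypothalamic genes differed between the groups, in both directions. Agrp had 0 and 4 counts in Dor cKO against 31 and 59 in Dor WT. Oxt was higher in Dor cKO, with a log2 fold change of 0.40 (edgeR adjusted p = 5.76e-05). The pituitary genes Cga and Gh had 0 and 0 counts and 3 and 0 counts in Dor cKO. In Dor WT they had 275 and 376 counts and 121 and 123 counts. Pomc and Tshb were also lower in Dor cKO but were not near 0. Pomc had 33 and 32 counts in Dor cKO against 126 and 114 in Dor WT. Tshb had 28 and 19 counts in Dor cKO against 51 and 46 in Dor WT. The part of these differences in the results below was not tested.

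Most of the abundant matrix genes of the group were lower in Dor cKO. Tnr, the tenascin made by oligodendrocytes, was 1.80-fold lower, the precursor and fibroblast lectican Vcan 1.52-fold lower, Bcan 1.38-fold lower and Ncan 1.27-fold lower. Of the 10 genes, 6 were called lower and 0 higher at an edgeR adjusted p under 0.05, where 27.7% of all 16751 tested genes were called in either direction, 13.4% lower and 14.3% higher. At an unadjusted p under 0.05, 1 of the 10 was higher (Acan), and 0 were called higher by DESeq2 or by limma on log2(TPM + 1). Acan was called higher at the fixed coefficient of 0.1 and without Dor cKO replicate 2. The 6 lower calls became 5 with DESeq2, 3 with limma, 3 at the fixed coefficient, 2 with an absolute log2 fold change of at least 0.5 and 4 without Dor cKO replicate 2. The median log2 fold change, Dor cKO minus Dor WT, was -0.35 over the 10 genes and -0.0036 over all tested genes. The groups did not overlap in CPM for 8 of the 10 genes, 6 of them lower and 2 higher in Dor cKO, against 60.8% of all tested genes. All 10 passed the filter on low counts, Hapln2 in 3 of the 4 libraries. In bulk tissue, fewer cells of a type and less RNA per cell cannot be told apart.

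**Figure D1:**
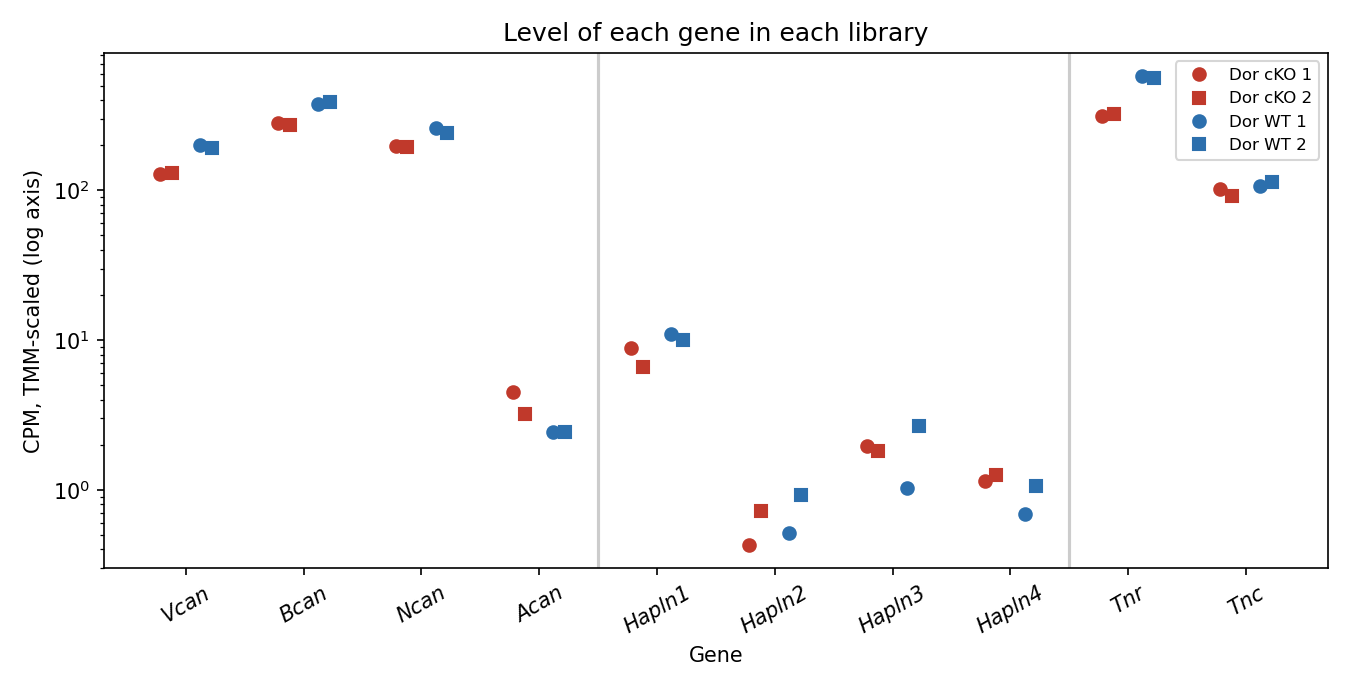
The plot shows CPM on a log axis for each gene in each library, with Dor cKO libraries in red left of Dor WT libraries in blue, and circles and squares for replicates 1 and 2. Tnr lies at 311 and 323 CPM in Dor cKO and at 575 and 564 CPM in Dor WT, and Hapln2, Hapln3 and Hapln4 lie below 3 CPM.

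Promoters are shown for the 4 most abundant members, Tnr, Vcan, Bcan and Ncan, because all of them were called lower. Each sequence is the 250 bases before the RefSeq start of the gene (GRCm38.p6), written 5′ to 3′ on the strand of the gene. Capitals mark matches on either strand to any of 5 motifs. ACAAAG is a core that SOX factors bind. CAGCTG is an E-box sequence. TATAAA is the TATA box. GGGCGG is the GC box. CCAAT is the letters of the CCAAT box.
Tnr, chr1:159523519-159523768, plus strand: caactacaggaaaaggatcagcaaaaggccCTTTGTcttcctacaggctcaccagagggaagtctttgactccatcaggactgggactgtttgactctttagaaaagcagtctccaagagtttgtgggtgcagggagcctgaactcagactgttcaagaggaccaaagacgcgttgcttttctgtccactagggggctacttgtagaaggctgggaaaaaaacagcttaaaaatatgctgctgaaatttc
Vcan, chr13:89742513-89742762, minus strand: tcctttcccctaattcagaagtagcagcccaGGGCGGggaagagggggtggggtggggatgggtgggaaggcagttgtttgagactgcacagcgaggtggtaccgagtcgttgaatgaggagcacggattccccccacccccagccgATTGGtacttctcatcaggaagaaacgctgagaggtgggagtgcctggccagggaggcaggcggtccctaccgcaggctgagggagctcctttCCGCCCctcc
Bcan, chr3:88000357-88000606, minus strand: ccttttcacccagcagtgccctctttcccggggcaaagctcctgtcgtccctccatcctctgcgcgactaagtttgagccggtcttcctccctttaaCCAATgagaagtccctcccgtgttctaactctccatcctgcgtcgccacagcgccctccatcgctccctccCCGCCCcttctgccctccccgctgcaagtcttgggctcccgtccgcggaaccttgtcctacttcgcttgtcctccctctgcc
Ncan, chr8:70120845-70121094, minus strand: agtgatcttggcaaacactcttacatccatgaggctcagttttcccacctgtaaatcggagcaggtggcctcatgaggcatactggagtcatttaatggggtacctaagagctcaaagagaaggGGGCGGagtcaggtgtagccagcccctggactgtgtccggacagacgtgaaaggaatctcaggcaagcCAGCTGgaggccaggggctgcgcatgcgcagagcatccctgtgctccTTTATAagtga
No motif was found in all 4 sequences. The SOX core was present in 1 of them (Tnr), the E-box in 1 (Ncan), the TATA box in 1 (Ncan), the GC box in 3 (Vcan, Bcan and Ncan) and the CCAAT box in 2 (Vcan and Bcan). Of all 32851 promoter windows of the same length in the table, 16.5% held the SOX core, 12.4% the TATA box, 32.7% the GC box and 33.8% the CCAAT box, and 4271 windows held the E-box. The Tnr window was AT-rich by comparison, with 46.8% G and C against a median of 52.4% over all windows, whereas Vcan had 62.4%, Bcan 62.0% and Ncan 54.4%. These matches describe letters in a short window and say nothing about the binding of a factor.

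Among the lecticans, the 3 abundant genes fell and the rare one did not pass the test. Vcan (ENSMUSG00000021614.16; GRCm38 chromosome 13, 89655312 to 89742509), made by oligodendrocyte precursors and connective tissue cells, had 128 and 130.4 CPM in Dor cKO against 201 and 192 CPM in Dor WT. Its log2 fold change was -0.60 (SE 0.03, edgeR adjusted p = 3.16e-14), and the lowest Dor WT library lay well above both Dor cKO libraries. Bcan (ENSMUSG00000004892.13; chromosome 3, 87987531 to 88000230), brevican, a lectican of astrocytes and precursors, had 280.0 and 273 CPM in Dor cKO against 379 and 386 CPM in Dor WT. Its log2 fold change was -0.47 (SE 0.03, edgeR adjusted p = 6.08e-15), with groups far apart relative to the spread within each. Ncan (ENSMUSG00000002341.8; chromosome 8, 70093085 to 70120873), neurocan, known from neurons and immature astrocytes, had 198 and 194 CPM in Dor cKO against 258 and 243 CPM in Dor WT. It fell by 0.35 (SE 0.03, edgeR adjusted p = 5.22e-10).

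Acan (ENSMUSG00000030607.7; chromosome 7, 79053483 to 79115099) encodes aggrecan, the main lectican of cartilage and of perineuronal nets, and had the opposite sign. It had 95 and 67 counts in Dor cKO, or 4.53 and 3.23 CPM, against 42 and 53 counts in Dor WT, or 2.42 and 2.44 CPM. Both Dor cKO libraries were above both Dor WT libraries, but the log2 fold change of 0.67 (SE 0.27) missed the threshold (edgeR adjusted p = 0.061). Its value rested on single libraries: it was 0.41 without Dor cKO replicate 1 (edgeR adjusted p = 0.516) and 0.90 without Dor cKO replicate 2 (edgeR adjusted p = 0.049). It was called at the fixed coefficient of 0.1 (adjusted p = 0.0442), but not by DESeq2 (adjusted p = 0.228) or by limma on log2(TPM + 1), where the value was 0.17 (adjusted p = 0.609).

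Link protein transcripts were scarce. Hapln1 (ENSMUSG00000021613.9; chromosome 13, 89539796 to 89611652), the link protein of cartilage and of perineuronal nets, had 186 and 137 counts in Dor cKO (8.86 and 6.60 CPM) and 191 and 216 counts in Dor WT (11.0 and 9.94 CPM). It fell by 0.43 (SE 0.16, edgeR adjusted p = 0.0389). DESeq2 did not call it (adjusted p = 0.188). Leaving out Dor WT replicate 1 gave -0.36 (adjusted p = 0.153), and the call also ended without Dor cKO replicate 2, where the value was -0.24 (adjusted p = 0.4365).

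Hapln2 (ENSMUSG00000004894.10; chromosome 3, 88021750 to 88027583), a link protein known from nodes of Ranvier in mature white matter, had 9 and 15 counts in Dor cKO and 9 and 20 counts in Dor WT. These low counts overlapped between groups, and the log2 fold change was -0.34 with an SE of 0.58 (edgeR adjusted p = 0.729), so no difference was detectable at this depth. Hapln3 (ENSMUSG00000030606.8; chromosome 7, 79115102 to 79131018), a link protein found widely outside the brain, had 41 and 38 counts in Dor cKO and 18 and 58 counts in Dor WT. The Dor WT libraries bracketed the Dor cKO libraries, with a log2 fold change of -0.0011 (SE 0.36, edgeR adjusted p = 0.998). Hapln4 (ENSMUSG00000007594.10; chromosome 8, 70083457 to 70090862), a brain link protein that pairs with Bcan in perineuronal nets, had 24 and 26 counts in Dor cKO and 12 and 23 counts in Dor WT. Its value was 0.43 (SE 0.47, edgeR adjusted p = 0.558).

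The tenascins differed in how far they moved. Tnr (ENSMUSG00000015829.13; chromosome 1, 159523769 to 159931729), secreted by oligodendrocytes and some neurons, had 311 and 323 CPM in Dor cKO against 575 and 564 CPM in Dor WT. It fell by 0.85 (SE 0.02, edgeR adjusted p = 1.31e-21), and 2.82% of all tested genes had a lower log2 fold change. Tnc (ENSMUSG00000028364.15; chromosome 4, 63959785 to 64047015), made by immature astrocytes and precursors, had 102 and 91.9 CPM in Dor cKO against 107 and 114 CPM in Dor WT. It fell by 0.19 (SE 0.05, edgeR adjusted p = 0.00364), and its nearest libraries, at 102 CPM in Dor cKO and 107 CPM in Dor WT, lay close together. Tnc was no longer called when Dor WT replicate 2 was left out (-0.14, adjusted p = 0.0519) or when Dor cKO replicate 2 was (-0.12, adjusted p = 0.163). Per library, the CPM of Tnr was 3.05 and 3.51 times that of Tnc in Dor cKO, against 5.38 and 4.96 times in Dor WT. CPM does not account for transcript length. In TPM, which does, Tnr was 2.05 and 2.45 times Tnc in Dor cKO, against 3.61 and 3.62 times in Dor WT.

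**Figure D2:**
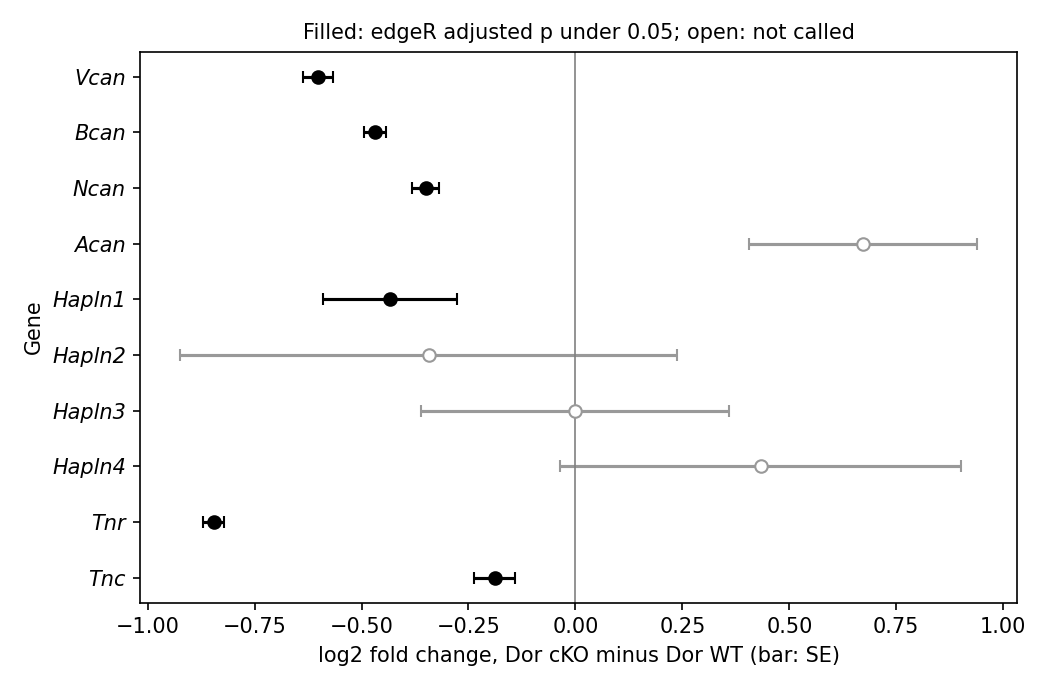
The plot gives the log2 fold change of each gene (Dor cKO minus Dor WT) on the horizontal axis with its SE as a bar. Filled points passed an edgeR adjusted p of 0.05: Tnr at -0.85 lies furthest left, and the open points of Acan, Hapln2, Hapln3 and Hapln4 have the 4 widest bars.

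Levels in TPM, which account for transcript length, allow the genes to be ordered. The order was the same in all 4 libraries: Bcan was highest, followed by Tnr, Ncan, Vcan, Tnc, Hapln1, Hapln3, Acan, Hapln2 and Hapln4. Bcan averaged 145 ± 2.40 TPM in Dor cKO and 204 ± 6.66 TPM in Dor WT (SD, n = 2 each), while Hapln4 averaged 0.505 ± 0.0354 TPM in Dor cKO and 0.375 ± 0.106 TPM in Dor WT. Neighbours in the order that overlapped between libraries of Dor cKO were Hapln3 (2.31 and 0.90 TPM) with Acan (1.22 and 0.74 TPM), and Hapln2 (0.52 and 0.62 TPM) with Hapln4 (0.48 and 0.53 TPM). No neighbours overlapped in Dor WT, where the closest were Acan, at 0.75 TPM in both libraries, and Hapln2, at 0.64 TPM in both.

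The summed lectican level was 219.7 and 208 TPM in Dor cKO against 293 and 305 TPM in Dor WT, while the make-up of that sum moved little. Bcan supplied 66.8% and 69.0% of lectican TPM in Dor cKO and 68.0% and 68.4% in Dor WT, values that overlap. Vcan supplied 13.9% and 11.3% in Dor cKO and 13.3% and 14.7% in Dor WT, which also overlap. Ncan supplied 18.7% and 19.4% in Dor cKO and 18.4% and 16.7% in Dor WT, with both Dor cKO libraries above both Dor WT libraries. The tenascin sum was 66.3 and 68.5 TPM in Dor cKO against 105 and 113 TPM in Dor WT, and Tnr supplied 67.2% and 71.0% of it in Dor cKO against 78.3% and 78.4% in Dor WT, with no overlap. All link proteins together reached 9.92 and 7.58 TPM in Dor cKO and 12.2 and 10.03 TPM in Dor WT. Lectican TPM was 22.1 and 27.4 times link protein TPM in Dor cKO and 24.1 and 30.4 times in Dor WT. These ratios overlapped between the groups. TPM here includes annotated noncoding transcripts of the genes, to which most of the TPM of Hapln1, the most abundant link protein gene, was assigned. The ratios and the order above are therefore not those of coding transcripts alone.

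Each lectican gene lies beside a link protein gene, a known arrangement of the family, and the annotation (GENCODE M21, GRCm38) places no protein-coding gene between the neighbours. Vcan and Hapln1 are 43659 bases apart on chromosome 13 and are read towards each other, and both were called lower, at -0.60 and -0.43. Bcan and Hapln2 are 21519 bases apart on chromosome 3 on the same strand, with log2 fold changes of -0.47 and -0.34, of which only that of Bcan was called. Ncan and Hapln4 are 2222 bases apart on chromosome 8 and are read towards each other, and their values had opposite signs, -0.35 (called) and 0.43 (not called). The facing ends of Acan and Hapln3 on chromosome 7 are only 2 bases apart, and their values were 0.67 and -0.0011, neither of them called. Both abundant and rare genes occur in these pairs: at Bcan and Hapln2, Bcan had 5878 and 5673 counts in Dor cKO and 6592 and 8381 in Dor WT, whereas Hapln2 stayed at 20 counts or fewer.

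Several of these genes have long alternative transcripts, and RSEM reports for each gene and library a transcript length weighted by the estimated share of each transcript. Versican isoforms are known to keep or skip the large exons that carry the chondroitin sulfate chains, and the annotated coding transcripts of Vcan include ones of 2321, 5702, 8332 and 12427 bases. The weighted Vcan length was 6275 and 8265 bases in Dor cKO and 7713 and 6479 bases in Dor WT, so the groups overlapped and the libraries within each group differed by more than the group means. Because TPM divides by this length, Vcan had 30.6 and 23.4 TPM in Dor cKO, further apart than its counts of 2691 and 2708, and 39.1 and 44.8 TPM in Dor WT. With limma on log2(TPM + 1), the Vcan value was -0.62 but was not called (adjusted p = 0.0716). The weighted Tnr length was 10306 and 9796 bases in Dor cKO and 10353 and 9492 bases in Dor WT, again overlapping. Bcan varied between 2945 and 3021 bases over the 4 libraries, and Ncan has a single annotated transcript of 7195 bases. Acan was 5581 and 6553 bases in Dor cKO and 4940 and 5004 bases in Dor WT, which do not overlap but rest on fewer than 100 counts per library. Hapln1 has a coding transcript of 5715 bases and a noncoding one of 464 bases that keeps an intron. Its weighted length was 2174 and 1962 bases in Dor cKO and 1845 and 2162 bases in Dor WT. In every library this length lay nearer to 464 than to 5715 bases, so most of the Hapln1 TPM was assigned to the noncoding transcript. The weighted Hapln2 length in Dor WT replicate 2 was 2338 bases, that of its longest transcript. That transcript keeps an intron and is noncoding, so all Hapln2 TPM in that library was assigned to it. Differences in length were not tested.

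**Figure D3:**
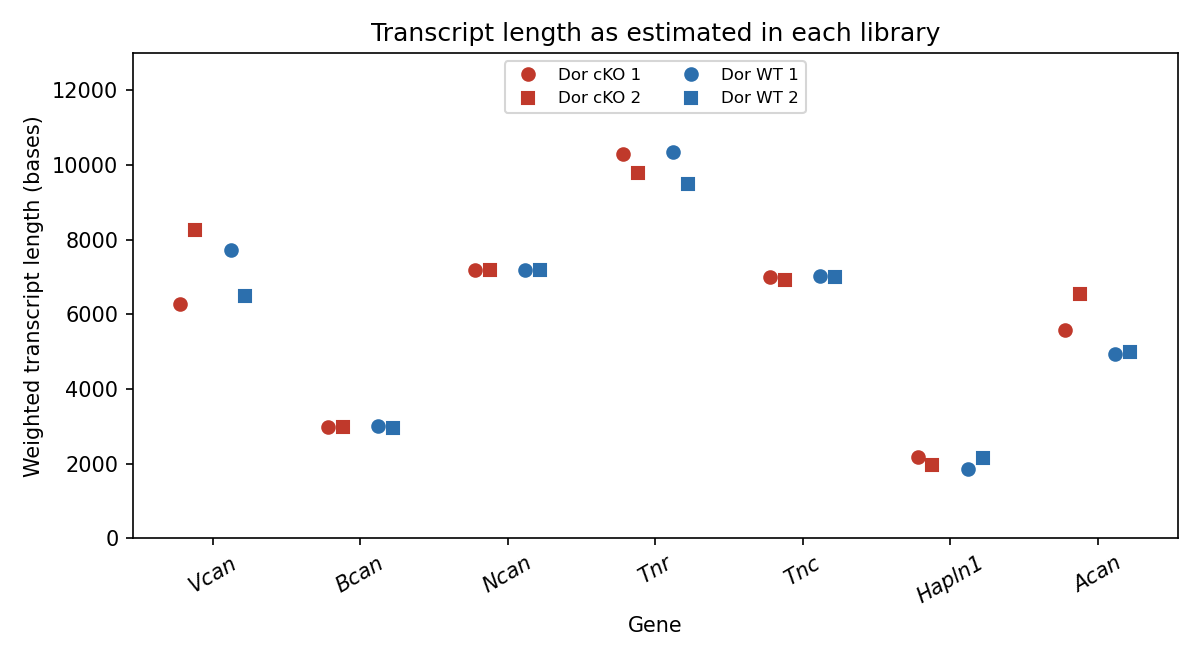
The plot shows the weighted transcript length in bases for 7 of the genes in each library, with Dor cKO in red left of Dor WT in blue. Vcan spreads from 6275 to 8265 bases with the groups interleaved, while Ncan stays at 7195 bases.

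Read sharing with other genes was small. RSEM's posterior SD of the count was 0 for 9 of the 10 genes in every library and at most 0.44 reads for Tnr. The antisense gene Gm4117, which overlaps Vcan on the opposite strand, had 26 and 32 counts in Dor cKO and 35 and 40 in Dor WT, and the sources used here do not say whether counting used the strand. The other annotated genes that overlap a member had 3 counts or fewer.

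Of 86 listed genes for hyaluronan and chondroitin sulfate metabolism, matrix proteases, receptors and binding partners, 83 were tested, 32 rose and 12 fell, with a median log2 fold change of 0.12. This balance depended on the setting: 7 were higher and 6 lower at the fixed coefficient of 0.1, and 2 were higher and 5 lower with an absolute log2 fold change of at least 0.5. Among all tested genes 14.3% were called higher and 13.4% lower. Markers of meningeal fibroblasts moved with the rises: 10 of 10 were called higher, with a median of 0.32 and a summed level of 14423 to 14440 CPM in Dor cKO against 11169 to 11176 CPM in Dor WT. Their part in the matrix results was not tested.

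Tnxb, a tenascin of connective tissue, went the other way from Tnr, with 358 and 361 CPM in Dor cKO against 274 and 270.1 CPM in Dor WT. It rose by 0.40 (SE 0.03, edgeR adjusted p = 1.8e-13), a call that ended at the fixed coefficient of 0.1 (adjusted p = 0.0575). Of 8 tested hyaluronan genes, 2 rose and 2 fell. Has2, a hyaluronan synthase gene, fell to 14 and 14 counts in Dor cKO, against 34 and 28 in Dor WT, at -1.26 (SE 0.47, edgeR adjusted p = 0.0461), but DESeq2 did not call it (adjusted p = 0.151), and it was also lost without any library except Dor WT replicate 2. Hyal2, a surface hyaluronidase gene, rose by 0.45 (SE 0.09) and Cemip, a hyaluronan depolymerase gene, by 0.30 (SE 0.09), whereas Cemip2 fell by 0.18 (SE 0.04). DESeq2 did not call Cemip (adjusted p = 0.0877), and leaving out replicate 1 of Dor cKO or of Dor WT gave it adjusted p-values of 0.108 and 0.0545. Cemip2 reached 0.0506 with replicate 1 of Dor cKO left out. Has1 and Has3, the other synthase genes, stayed below 30 counts and were not called.

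Of 12 genes that build the chondroitin chain, 3 rose and 2 fell. Xylt1, which adds the first sugar to the core protein, fell by 0.38 (SE 0.07), while its relative Xylt2 rose by 0.28 (SE 0.07). Csgalnact1, which starts the chondroitin repeat, fell by 0.44 (SE 0.12), and the polymerising factor Chpf rose by 0.29 (SE 0.04). The Csgalnact1 call ended with DESeq2 (adjusted p = 0.0609) and without Dor cKO replicate 2 (adjusted p = 0.0697), and that of Xylt2 ended without Dor WT replicate 2 (adjusted p = 0.0759). Of 10 sulfotransferase and epimerase genes, 4 rose and 1 fell. Chst3, a sulfotransferase gene that modifies chondroitin in the brain, had 22.8 and 23.1 CPM in Dor cKO against 32.6 and 31.2 CPM in Dor WT and fell by 0.48 (SE 0.08, edgeR adjusted p = 4.03e-05). Chst15, which makes a doubly sulfated form of the chain, had 107 and 98.4 CPM in Dor cKO against 73.8 and 73.3 CPM in Dor WT and rose by 0.48 (SE 0.05, edgeR adjusted p = 6.18e-09). Chst11 rose by 0.15 (SE 0.04) and the epimerase gene Dse by 0.23 (SE 0.06). DESeq2 did not call Chst11 (adjusted p = 0.0868), and leaving out replicate 2 of Dor cKO or of Dor WT gave adjusted p-values of 0.118 and 0.0654. Dse was not called without Dor WT replicate 2 (adjusted p = 0.0722).

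Of 14 tested protease and inhibitor genes, 7 rose and 2 fell. Adamts4, an aggrecanase that cleaves lecticans and is made by oligodendrocytes, had 115 and 119 CPM in Dor cKO against 214 and 214 CPM in Dor WT. It fell by 0.88 (SE 0.03, edgeR adjusted p = 2.76e-18), close in size to Tnr. Mmp2 and Mmp14, matrix metalloproteases, rose by 0.46 (SE 0.04) and 0.30 (SE 0.03), and the inhibitor gene Timp3 by 0.23 (SE 0.02). The low gene Adamts20 fell by 0.69 (SE 0.22), which DESeq2 did not call (adjusted p = 0.123). Leaving out either Dor cKO library gave adjusted p-values of 0.124 and 0.0864, and leaving out replicate 2 of Dor WT gave 0.0742.

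Genes for proteins that bind tenascins or lecticans moved in both directions. Of 12 binding partner genes, 6 rose and 3 fell, and of 15 receptor genes, 3 rose and 2 fell. Nfasc, the neurofascin gene of the node and paranode, had 1160.5 and 1163 CPM in Dor cKO against 1983 and 1968 CPM in Dor WT and fell by 0.77 (SE 0.01, edgeR adjusted p = 1.94e-25). Cntn1, the contactin that binds Tnr and sits at the paranode, fell by 0.54 (SE 0.03, edgeR adjusted p = 2.57e-15), and Ncam1 by 0.30 (SE 0.03). Fn1, fibronectin, rose by 0.38 (SE 0.01) and Egfr by 0.34 (SE 0.05), calls lost under 2 and 4 of 14 alternatives. Lyve1, a hyaluronan receptor of lymphatic vessels and macrophages, rose by 0.65 (SE 0.09), a call lost under 2 of 14. Ptprz1, a receptor phosphatase that also exists as a secreted proteoglycan, fell by 0.07 (SE 0.02), a call lost under 9 of 14 alternatives. Of 12 other chondroitin proteoglycan genes 6 rose, among them Bgn (biglycan) by 0.26 (SE 0.02) and Aplp2 by 0.23 (SE 0.02), and 1, Ptprz1, fell.

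**Figure D4:**
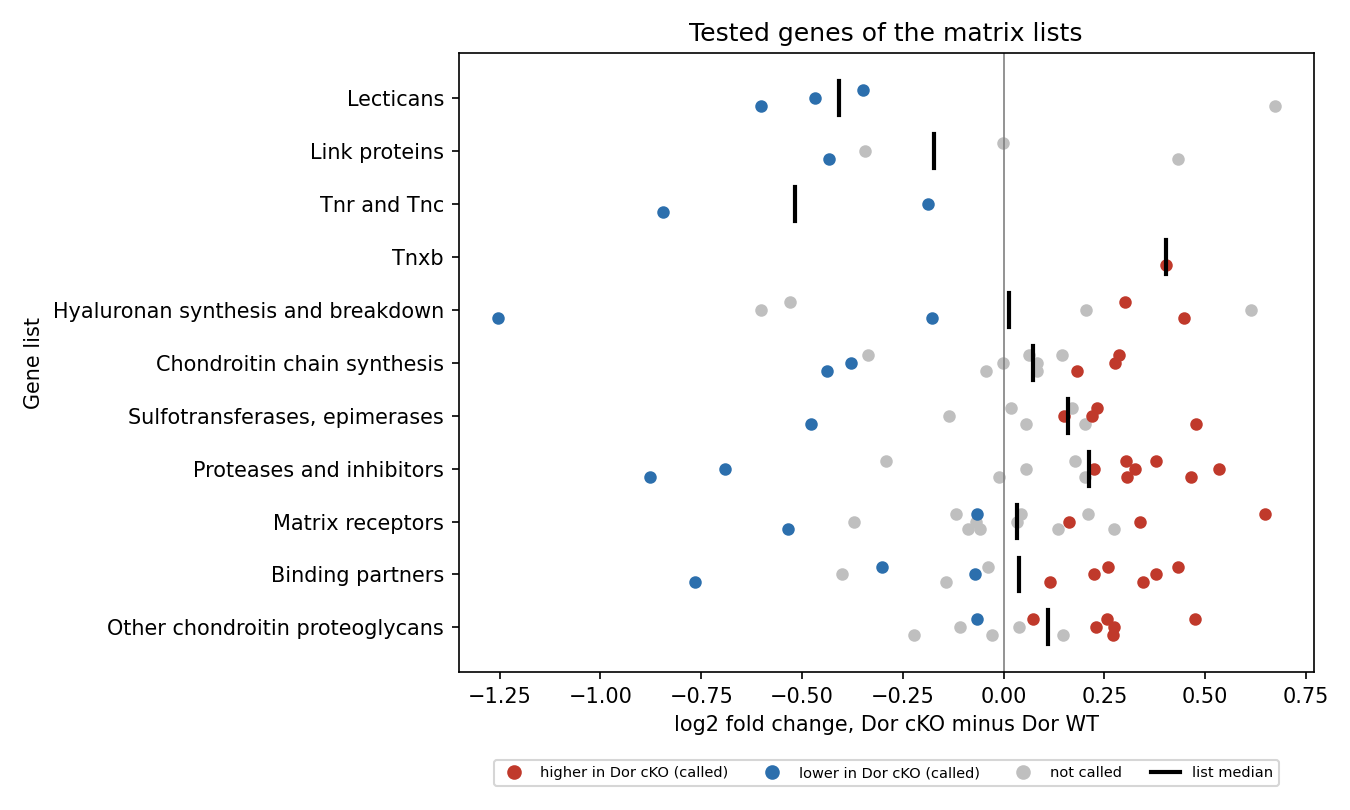
Each point is a tested gene, placed by its log2 fold change (Dor cKO minus Dor WT) in the row of its list; red points were called higher, blue lower, grey not called, and the black bar is the list median. The medians of lecticans, link proteins and the tenascins Tnr and Tnc lie at -0.41, -0.17 and -0.52, and those of the other lists lie between 0.0124 and 0.40.

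Markers of the oligodendrocyte lineage were lower in Dor cKO, as 6 of the 10 members were, whereas most called astrocyte and all called fibroblast markers were higher. Of 12 mature oligodendrocyte genes, 12 fell, with a median of -0.88 and a summed level of 18088 to 18169 CPM in Dor cKO against 31432 to 31574 CPM in Dor WT. Mbp, which encodes myelin basic protein, fell by 0.73 (SE 0.01). The values of this list ran from -1.53 to -0.45. Tnr and Adamts4, at -0.85 and -0.88, lay within that range, as did Vcan at -0.60 and Bcan at -0.47, so it sets none of them apart. Of 8 precursor genes 5 fell, with a median of -0.26 and a sum of 827 to 828 CPM in Dor cKO against 1229 to 1259 CPM in Dor WT. Within this list Pdgfra, the receptor that defines precursors, had a log2 fold change of -0.07 (SE 0.03, edgeR adjusted p = 0.044). Cspg4, C1ql1 and Tmem100 were not called. Gpr17, a receptor gene of committed precursors, had -1.18 (SE 0.02). It made up most of the gap between the sums, with 246 and 255 CPM in Dor cKO against 572 and 566 CPM in Dor WT. All 6 members called lower, from Tnc at -0.19 to Tnr at -0.85, lie between Pdgfra and Gpr17, so this range sets none of them apart. Of 10 astrocyte genes 8 rose and 1 fell, with a median of 0.20. They summed to 15307 to 15342 CPM in Dor cKO against 13949 to 13964 CPM in Dor WT. Bcan, Ncan and Tnc were lower, as was Aqp4, the astrocyte gene that fell, at -0.35 (SE 0.02). Gja1, the main astrocyte gap junction gene, rose by 0.38 (SE 0.01).

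Neuron markers, of which 12 were tested, had 1 higher, 2 lower and 9 not called, and summed to 492 to 493 CPM in Dor cKO against 584 to 585 CPM in Dor WT. Map2, a microtubule gene of dendrites, made up most of that gap, with 237 and 247 CPM in Dor cKO against 323 and 326 CPM in Dor WT. Of 9 tested pituitary and hypothalamus genes, 6 were lower and 1 higher in Dor cKO. Microglia genes, of which 8 were tested, had 4 higher and 1 lower, and of 6 endothelial genes 3 were higher. What these cell types contribute to the values of the lecticans, link proteins and tenascins was not tested.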

How the data were processed

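PolyA RNA of mouse optic nerves was sequenced in 2 Dor cKO and 2 Dor WT libraries. RSEM 1.3.1, STAR 2.7.9a, Trimmomatic 0.36 and the build GRCm38 are listed in the submitters' processing notes, with no role or order. The sources used here name no annotation release. Each deposited table gives, per the file headers, an expected count (an estimate that shares ambiguous reads between genes), a TPM value, a weighted transcript length and a posterior SD of the count. Symbols came from a table of mouse gene names, which matched 55141 of 55401 identifiers, and gene positions from GENCODE M21. The other 260 held 0.00297% of counts and were kept.

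Expected counts as deposited were rounded, then filtered with filterByExpr (minimum count 10, minimum total 15), which left 16751 genes, and scaled by TMM. Groups were compared with the quasi-likelihood test of edgeR 4.0.16 (robust, group as the only term), with Benjamini-Hochberg adjustment over all tested genes and a threshold of 0.05. The SE is the log2 fold change divided by the square root of F. The deposited TPM values served for levels between genes. The common biological coefficient of variation was 0.0348. The steps were tested on simulated data. Alternatives used DESeq2 1.42.0 and limma 3.58.1 with R 4.3.3. Replicate libraries differed by more than counting noise (chi-square per degree of freedom of 2.21 in Dor cKO and 2.69 in Dor WT). Promoters came from RefSeq (GRCm38.p6), which matched 9 of the 10 members.

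All 10 members are named. From each matrix list up to 3 called genes per direction with the highest mean CPM could be named, or the 2 most abundant where none was called, and from each marker list the 2 most abundant. Has1, Has3, Cga, Gh, Pomc, Tshb, Agrp, Cspg4, C1ql1, Tmem100 and Aqp4 were added after their values were seen. Members, lists and this rule were chosen with earlier results of these data known.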

Additional observations from a re-analysis of the deposited data

How the results depend on the processing

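Of the 14 alternatives, the replicate block, scaling by RLE or by total count, dropping the low-count filter, and requiring 1 CPM in 2 libraries left the 6 calls among the 10 members at 6. With DESeq2 there were 5. The replicate numbers of the labels carry no stated pairing, and the deviations of same-numbered libraries correlated at -0.0121. With the replicate block, 4971 genes were called in all and 46 of the listed matrix genes, against 4647 and 44 without it. Over all genes 2922 were called with DESeq2 (1539 higher, 1383 lower), 1388 with limma on log2(TPM + 1) (666 and 722), 1406 with limma on log2(TPM + 0.1) (672 and 734), 1594 with a fixed coefficient of variation of 0.1 (703 and 891) and 1150 with an absolute log2 fold change of at least 0.5 (466 and 684). Leaving out 1 library at a time gave 3474 to 4257 (1782 to 2184 higher, 1670 to 2073 lower).

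Among the members, limma on TPM called 3 (all lower: Bcan, Ncan and Tnr) with either pseudocount. The coefficient of variation of 0.1 called 4, with 3 lower (Vcan, Bcan and Tnr) and 1 higher (Acan). The fold minimum left 2 lower, Vcan and Tnr. Without 1 library, 5 or 6 members were called, 4 to 6 lower and 0 to 1 higher. The listed matrix genes gave 19 calls with limma on log2(TPM + 1) and 19 on log2(TPM + 0.1) (15 higher and 4 lower in each), 13 with the coefficient of variation of 0.1 (7 and 6), 7 with the fold minimum (2 and 5) and 7 lower with DESeq2. Without 1 library they gave 36 to 42 (29 to 31 higher, 7 to 11 lower), with the 7 lower reached without Dor cKO replicate 1 or without Dor cKO replicate 2. Hapln2 gave no value where a setting removed it. Chpf2 changed sign with limma on TPM, at -0.0146 (pseudocount 1) and -0.015 (pseudocount 0.1); the cause was not tested. No member called in the edgeR fit changed sign. Tnr was called under all 14 alternatives, at -0.88 to -0.82. Among the named matrix genes outside the members, only Nfasc, Cntn1 and Adamts4 were also called under all 14. Every other call among those genes was lost under at least 1 alternative. Depth limits Hapln2, Hapln3 and Hapln4 most, with 58 counts or fewer per library.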
